A study of Caenorhabditis elegans with 8 samples.

Results

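The response of worms to feeding RNAi against rege-1 was compared between a wild type and a glp-1 mutant strain. All 8 libraries of the series enter, since the quantity of interest is the difference of the RNAi effects, (N2 RNAi minus N2 mock) minus (glp-1 RNAi minus glp-1 mock), called the interaction below. N2 is the laboratory wild type of Caenorhabditis elegans. The other strain carries glp-1 (e2141), a temperature-sensitive allele of the GLP-1 receptor gene. Each strain had 2 libraries of worms fed a mock control and 2 of worms on food carrying double-stranded RNA of rege-1. All were whole animals, synchronized as larvae, fed in this way from the first larval stage and collected as young adults. The labels give 25 °C for the glp-1 animals and no temperature for N2, so strain and temperature cannot be told apart. They do not state separate cultures either, so a p-value here sets a difference against the spread of these libraries alone, and that spread may be technical. Total RNA was made into libraries with the ScriptSeq v2 kit, and the authors deposited counts per gene. Levels are CPM, counts scaled to 1e6 per library, after scaling by the trimmed mean of M values (TMM). Differences are log2 values, given with a standard error (SE). A positive interaction means that the change in N2 lay above that in glp-1. Adjusted p is from edgeR's quasi-likelihood test with Benjamini-Hochberg adjustment over all 15321 genes tested, n = 2 libraries per group, and a gene is called below 0.05.

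The gene rege-1 encodes an RNase domain protein related to mammalian Regnase-1, a cytoplasmic enzyme that degrades chosen mRNAs, many of them of immune genes, through their 3′ untranslated regions. In C. elegans its known target is the mRNA of ETS-4, a transcription factor of the intestine that acts on fat and innate immune genes. In feeding RNAi, double-stranded RNA made by the food bacteria is taken up through the gut and directs the worm's own RNAi machinery against the matching mRNA. GLP-1, a receptor of the Notch family, holds the stem cells of the germline in division, and worms that lack its activity from early larval life make few germ cells, change their fat storage and live longer.

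Library totals ran from 26127079 to 30093967 mRNA counts. The mRNA of rege-1 was higher, not lower, in the libraries labelled RNAi, so directions below are those of the libraries labelled RNAi. Count tables do not separate reads of the worms' own rege-1 RNA from reads of the double-stranded RNA in the food, and the part of the latter in the rege-1 counts was not tested. Germline RNA was still present in the libraries labelled glp-1. The summed level of 15 germline markers was 3071 to 3532 CPM in N2 and 2283 to 2495 CPM in glp-1, that of 34 eggshell and oocyte genes 11690 to 14703 and 10751 to 11895 CPM, and none of these markers was at 0. Sperm genes stood the other way, with sums over 30 major sperm protein genes (9 of them at 0 in every library) of 12.7 to 20.1 CPM in N2 and 24.8 to 36.1 CPM in glp-1, and sums over 57 other sperm genes (3 at 0) of 424 to 529 and 626 to 698 CPM. The strains did not overlap for the germline markers or for either sperm list. Of the 15 germline markers, 4 were called higher in N2 under mock, among them glh-1 and pgl-1, which encode P granule proteins, against 3.24% of all genes tested. In whole worms, fewer cells of a type and less RNA per cell cannot be told apart. The part of germline content in the differences below was not tested.

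Few genes were called as responding differently in the strains, by a test with 2 libraries per group and 4 residual degrees of freedom. A gene without a call is not shown to respond alike in both strains. The interaction was called for 4 genes, which is 0.0261% of those tested: the C-type lectin genes clec-125 and clec-72, the carnitine palmitoyltransferase gene cpt-3 and the cytochrome P450 gene cyp-13A12. In each of them the change was larger in N2. The number with a negative interaction was 0, although 458 genes (2.99%) were negative and 370 (2.41%) positive at an unadjusted p below 0.05, and DESeq2 called 11 negative genes and limma 0. When each library's trend over the width column, taken as coding length, was removed, 12 genes were called (0.0783%), 10 of them positive (0.0653%) and 2 negative (0.0131%), and they included the same 4. The 8 additional genes were clec-67, clec-47, hacd-1, cat-4, pcp-2 and Y37H2A.14, all positive, and asm-3 and cyp-34A9, both negative. All 12 had the larger absolute change in N2. For asm-3 and cyp-34A9, which fell, the negative sign means a deeper fall in N2.

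Single libraries decided how many genes passed. With the trend left in, the count was 0 without N2 mock replicate 1, without N2 mock replicate 2 or without glp-1 mock replicate 2, 1 without glp-1 mock replicate 1, 2 without glp-1 RNAi replicate 1, 3 without N2 RNAi replicate 1 and 5 without N2 RNAi replicate 2. Without glp-1 RNAi replicate 2 it was 415, of which 388 were positive. These 415 genes had a median coding length of 2490 bases, against 1095 over all genes tested. With the trend removed, leaving out that library gave 0 genes in place of 415, and the others gave 0 without N2 mock replicate 1, 26 without N2 mock replicate 2, 17 without N2 RNAi replicate 1, 6 without N2 RNAi replicate 2 or glp-1 mock replicate 1, 4 without glp-1 mock replicate 2 and 2 without glp-1 RNAi replicate 1. Over 27 alternatives, each of the 8 additional genes kept its sign, and a call was made in 15 for asm-3, 14 for cat-4, 9 for clec-67, hacd-1 and Y37H2A.14, 8 for cyp-34A9 and clec-47 and 7 for pcp-2. Of the first 4 genes, clec-125 was called in 22, clec-72 in 19 and cpt-3 in 16. For cyp-13A12 it was 14 of 26, so not all 4 were firmer than asm-3 and cat-4. In these fits the lone library of a group is assumed to vary like those of the other groups, which differ in this: the mean chi-square per gene between replicates was 3.40 in glp-1 mock, 28.9 in N2 RNAi, 38.3 in N2 mock and 55.5 in glp-1 RNAi. The fits of all libraries likewise take a single spread per gene for all groups. Their SEs, intervals and calls rest on the same assumption.

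C-type lectins made up 4 of the 12 genes, which is 4 of the 153 lectins tested, where 0.0653% of all genes were called positive in the same fit. Their family of secreted or membrane proteins with a carbohydrate-binding fold is large in C. elegans, and many members respond to bacteria in the intestine. For clec-125 (WBGene00021118, chromosome II, 3516003 to 3518898, plus strand) the level was 1.75 and 1.75 CPM in N2 mock, 13.2 and 13.5 in N2 RNAi, 15.9 and 17.9 in glp-1 mock and 24.4 and 21.5 in glp-1 RNAi. Both N2 mock libraries stood apart below the other 6, and glp-1 mock already lay above N2 RNAi. The interaction was 2.49 (SE 0.25, adjusted p = 0.00769), from a change of 2.93 in N2 and 0.44 in glp-1, of which the latter was not called (adjusted p = 0.284). With the trend left in, its call was lost without N2 mock replicate 1, N2 mock replicate 2 or glp-1 mock replicate 2. With the trend removed, it was lost without N2 mock replicate 1 or glp-1 RNAi replicate 2. The value stayed between 2.25 and 2.61 in all 27 alternatives.

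The gene clec-72 (WBGene00021583, chromosome IV, 3944816 to 3947362, plus strand) was found at 0.631 and 0.311 CPM in N2 mock, 29.5 and 38.6 in N2 RNAi, 2.17 and 2.34 in glp-1 mock and 16.8 and 15.8 in glp-1 RNAi. It rose in both strains without overlap, from a lower mock level and to a higher RNAi level in N2. The interaction was 3.29 (SE 0.37, adjusted p = 0.0162), from 6.14 in N2 and 2.85 in glp-1. With the trend left in, its call was lost without either N2 mock library, either glp-1 mock library or glp-1 RNAi replicate 1. With the trend removed, losses included the fits without N2 mock replicate 1 and without glp-1 RNAi replicate 2.

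The gene clec-67, on the same chromosome (WBGene00018971, chromosome IV, 3922165 to 3925039, plus strand) showed the same order of groups at a higher level, 7.74 and 10.5 CPM in N2 mock, 89.5 and 101.36 in N2 RNAi, 15.8 and 16.3 in glp-1 mock and 63.1 and 54.4 in glp-1 RNAi. The interaction was 1.52 (SE 0.23, adjusted p = 0.0609). Without the trend it came to 1.51 (SE 0.23, adjusted p = 0.0366). For clec-47 (WBGene00011668, chromosome V, 15175759 to 15176324, plus strand) the level was 1.26 and 1.48 CPM in N2 mock, 21.1 and 8.07 in N2 RNAi, 11.6 and 12.01 in glp-1 mock and 13.2 and 7.01 in glp-1 RNAi. Only the N2 mock libraries stood apart, and the N2 RNAi libraries differed from each other more than the glp-1 groups differed in mean. The interaction was 3.63 (SE 0.59, adjusted p = 0.114), and with the trend removed it was 3.75 (SE 0.54, adjusted p = 0.039). Lectin genes have close relatives, and how the authors' counting assigned reads shared between copies is not given in the sources used here.

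**Figure D1:**
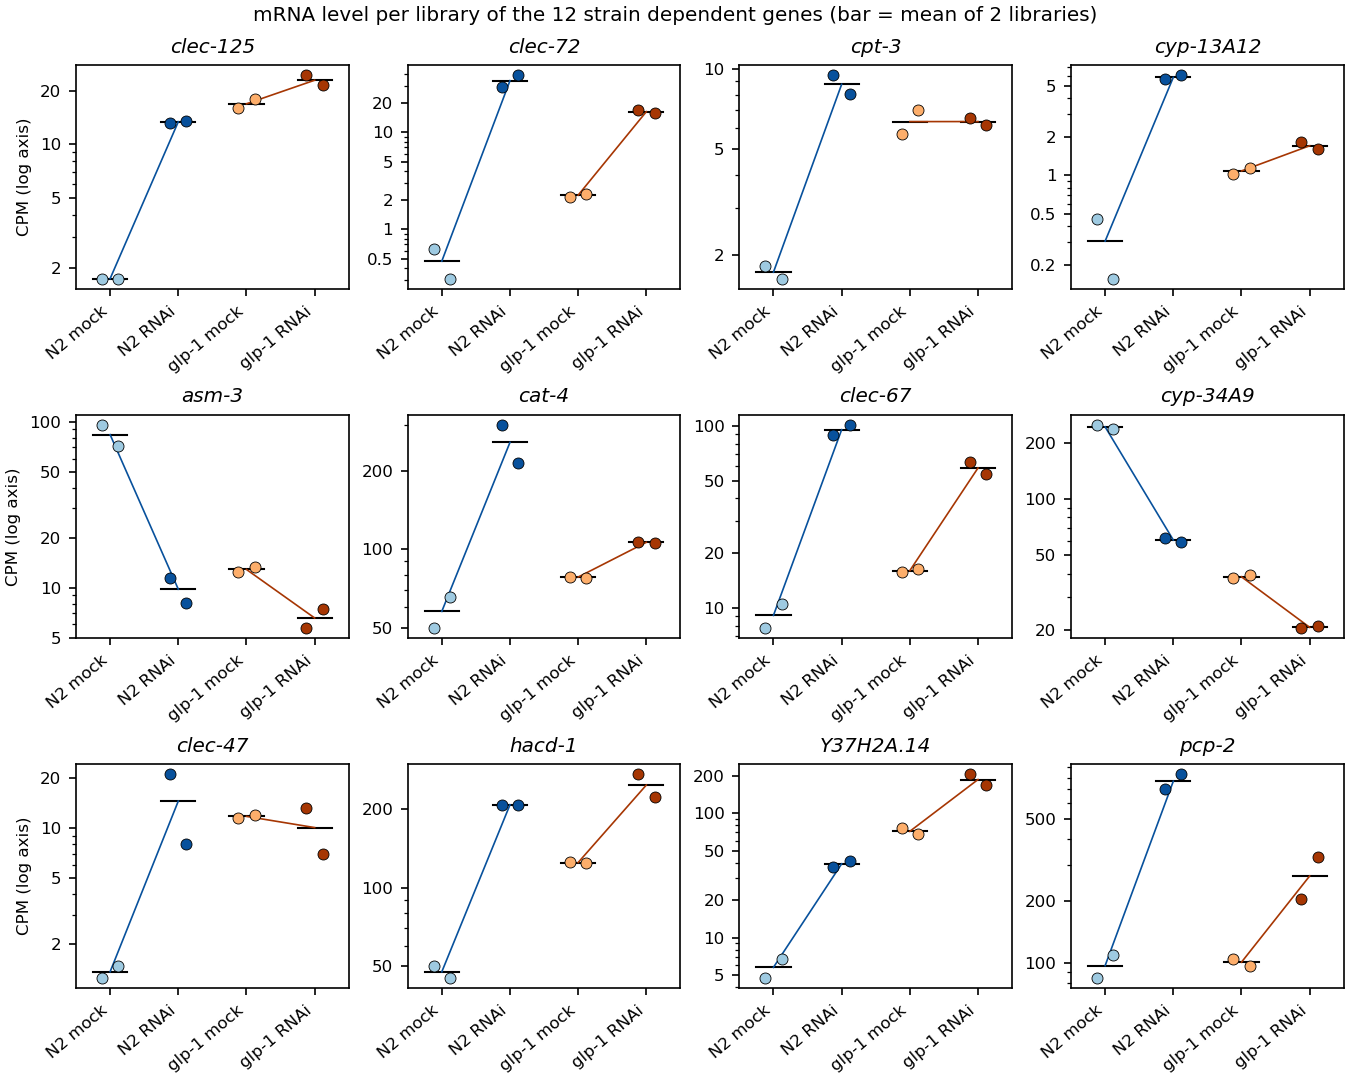
Level of the 12 genes called for strain dependence in either fit, one panel per gene, in CPM on a log axis. Each point is 1 library, each bar the mean of 2 libraries, and each line joins mock to RNAi within a strain. The N2 line rises in 10 panels and falls in asm-3 and cyp-34A9, and in each panel it is steeper than the glp-1 line.

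Of the other genes, 3 encode enzymes of lipid metabolism. The gene cpt-3 (WBGene00021703, chromosome III, 2082819 to 2088314, plus strand) belongs to the carnitine palmitoyltransferases, which pass long-chain fatty acids to mitochondria for oxidation. Its level was 1.82 and 1.63 CPM in N2 mock, 9.48 and 8.07 in N2 RNAi, 5.70 and 7.01 in glp-1 mock and 6.57 and 6.15 in glp-1 RNAi. It rose in N2 from a level that stood apart below the other 6 libraries, and the glp-1 groups overlapped. The interaction was 2.34 (SE 0.29, adjusted p = 0.0248), from 2.34 in N2 and 0.00 in glp-1. With the trend left in, only leaving out N2 RNAi replicate 2 or glp-1 RNAi replicate 2 kept its call. With the trend removed, losses included the fits without N2 mock replicate 1 and without glp-1 RNAi replicate 2. The value stayed between 2.07 and 2.50 over the alternatives. Its relative cpt-4 moved the other way without a call, at 16.15 and 20.5 CPM in N2 mock, 7.55 and 9.65 in N2 RNAi, 1.83 and 2.24 in glp-1 mock and 2.50 and 3.94 in glp-1 RNAi (interaction -1.75, SE 0.36, adjusted p = 0.238).

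The gene hacd-1 (WBGene00019978, chromosome V, 1460369 to 1461613, plus strand) encodes a hydroxyacyl-CoA dehydrogenase, an enzyme of fatty acid β-oxidation. Its level was 50 and 45.2 CPM in N2 mock, 208 and 207 in N2 RNAi, 125.06 and 124 in glp-1 mock and 271 and 223 in glp-1 RNAi, so that both strains rose without overlap and the N2 mock libraries were the lowest. The interaction was 1.14 (SE 0.20, adjusted p = 0.16), and with the trend removed it was 1.19 (SE 0.17, adjusted p = 0.0249). The gene asm-3 (WBGene00000213, chromosome IV, 520214 to 523809, minus strand) encodes an acid sphingomyelinase, which cuts sphingomyelin into ceramide and phosphocholine. Its level was 95.6 and 71.4 CPM in N2 mock, 11.5 and 8.07 in N2 RNAi, 12.5 and 13.2 in glp-1 mock and 5.70 and 7.43 in glp-1 RNAi. The N2 mock libraries stood far above the other 6, and N2 RNAi lay between glp-1 mock and glp-1 RNAi without overlapping either. The interaction was -2.12 (SE 0.30, adjusted p = 0.05003), at the threshold, and -2.17 (SE 0.28, adjusted p = 0.0138) with the trend removed.

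A pair of cytochrome P450 genes, which encode monooxygenases of lipids and foreign compounds, differed in opposite directions. The gene cyp-13A12 (WBGene00008810, chromosome III, 13024547 to 13028017, plus strand) was low, at 0.456 and 0.156 CPM in N2 mock, 5.61 and 6.02 in N2 RNAi, 1.02 and 1.14 in glp-1 mock and 1.81 and 1.59 in glp-1 RNAi. It rose in N2 from below glp-1 mock to above glp-1 RNAi. The interaction was 3.55 (SE 0.48, adjusted p = 0.0429), from 4.202 in N2 and 0.65 in glp-1. Only 13 and 4 counts lie behind the N2 mock values. With the trend left in, the call was lost when any library other than glp-1 RNAi replicate 2 was left out. With the trend removed, losses included the fit without that library. Values of the interaction ran from 2.83 to 4.53 over the alternatives. The gene cyp-34A9 (WBGene00015044, chromosome V, 3968134 to 3970540, minus strand) was far higher, at 251 and 239 CPM in N2 mock, 61.7 and 59.3 in N2 RNAi, 37.7 and 39.1 in glp-1 mock and 20.4 and 20.8 in glp-1 RNAi. It fell in both strains, and N2 RNAi still lay above glp-1 mock. The interaction was -1.12 (SE 0.17, adjusted p = 0.0609), and with the trend removed it was -1.14 (SE 0.16, adjusted p = 0.0178). The neighbouring cyp-34A10 (chromosome V, 3970702 to 3972991, minus strand) was 2.85 higher in N2 than in glp-1 under mock and 1.19 higher under RNAi, and its interaction of -1.66 (SE 0.30) was not called (adjusted p = 0.175).

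The last 3 genes fall in no shared family. The gene cat-4 (WBGene00000298, chromosome V, 10564880 to 10566464, plus strand) encodes GTP cyclohydrolase, the first enzyme of the synthesis of tetrahydrobiopterin, a cofactor needed to make dopamine and serotonin. Its level was 49.97 and 65.9 CPM in N2 mock, 299.6 and 214 in N2 RNAi, 78.7 and 78.1 in glp-1 mock and 107 and 106 in glp-1 RNAi, with only the N2 RNAi libraries standing far apart. The interaction was 1.71 (SE 0.25, adjusted p = 0.0609), and with the trend removed it was 1.79 (SE 0.22, adjusted p = 0.0121). This gene overlaps 1 other gene of the annotation, and whether counting used the strand is not given in the sources used here.

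The gene pcp-2 (WBGene00003957, chromosome IV, 9160588 to 9165127, minus strand), of the prolyl carboxypeptidase family of serine proteases, had 84.8 and 109 CPM in N2 mock, 707 and 828 in N2 RNAi, 105 and 97.0 in glp-1 mock and 204 and 327 in glp-1 RNAi. The mock libraries of the strains interleaved, and N2 RNAi lay above glp-1 RNAi without overlap. The interaction was 1.59 (SE 0.30, adjusted p = 0.188), and with the trend removed it was 1.42 (SE 0.22, adjusted p = 0.0408). The gene Y37H2A.14 (WBGene00045416, chromosome V, 18143745 to 18144720, plus strand) had 4.77 and 6.77 CPM in N2 mock, 36.9 and 41.5 in N2 RNAi, 75.5 and 67.4 in glp-1 mock and 205 and 168 in glp-1 RNAi. Both glp-1 groups lay above both N2 groups, and N2 rose by more. The interaction was 1.38 (SE 0.24, adjusted p = 0.16), and with the trend removed it was 1.505 (SE 0.22, adjusted p = 0.0249).

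An interaction equals the strain difference under RNAi minus that under mock, so each was split into these parts. The same libraries chose the genes and gave the differences, which are therefore descriptions. Among the 12 genes, the strain difference passed the threshold under mock alone in 4 (cpt-3, asm-3, clec-47 and hacd-1), under RNAi alone in 2 (cat-4 and pcp-2) and under both in 6 (clec-125, clec-72, cyp-13A12, clec-67, cyp-34A9 and Y37H2A.14). These counts were 4, 2 and 6 again with the trend removed. Over all genes tested the strains differed for 9.73% under mock and 18.1% under RNAi, or 11.3% and 14.6% with the trend removed. These background counts moved with single libraries. From 1491 genes the mock count went to 458 and 485 without glp-1 mock replicate 2 and 1, to 620 without N2 mock replicate 1, 806 without N2 mock replicate 2 and 2304 without glp-1 RNAi replicate 2. From 2774 genes the RNAi count went to 517 without N2 RNAi replicate 2, to 1250 without glp-1 RNAi replicate 1 and to 1458 and 1454 without glp-1 mock replicate 1 and 2. Of the same genes, 3.08% differed under mock alone, 11.5% under RNAi alone and 6.65% under both, or 4.90%, 8.20% and 6.41% with the trend removed. The difference under mock was the larger in 10 of the 12 genes in both fits, against 40.8% of all genes tested, or 45.3% with the trend removed. This number was 9 or 10 under every alternative for which it was computed. With a mean of at least 5 CPM, cyp-13A12 was not tested, so the 9 there leaves that gene out. It was not computed for the linear trend, the block within strain or the trend-removed fits with a library left out. The differences of cyp-13A12 were nearly equal in size.

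The strain difference was called under mock alone in cpt-3, clec-47, asm-3 and hacd-1. In cpt-3 the strains differed by -1.87 (95% interval -2.35 to -1.40), N2 minus glp-1, under mock and by 0.46 (95% interval 0.05 to 0.88) under RNAi. In asm-3 the values were 2.70 (95% interval 2.24 to 3.16) and 0.57 (95% interval 0.10 to 1.05). In both genes the mock levels of the strains were far apart and the RNAi levels closer. A call under RNAi alone was made in cat-4 and pcp-2. For cat-4 the strain difference was -0.44 (95% interval -0.83 to -0.05) under mock and 1.27 (95% interval 0.88 to 1.66) under RNAi. For pcp-2 it was -0.06 (95% interval -0.52 to 0.41) and 1.53 (95% interval 1.06 to 2.01). The intervals, which are not adjusted for the number of genes, held a single sign under both conditions in cpt-3, asm-3 and cat-4. A missing call there does not show equal levels. Among the genes called under both conditions, the sign turned over in clec-72, cyp-13A12 and clec-67. In these N2 was the lower strain under mock and the higher under RNAi. The values of cpt-3 and cat-4 turned in the same way, with a call under mock alone or RNAi alone. Those of clec-47 and pcp-2 did so in sign only. The mock interval of pcp-2 held both signs, and the RNAi libraries of clec-47 overlapped between the strains. For cyp-13A12 the values were -1.78 (95% interval -2.65 to -0.90) and 1.77 (95% interval 1.18 to 2.36). In clec-125, Y37H2A.14 and cyp-34A9 the order of the strains was the same in both conditions and the distance shrank, for clec-125 from -3.27 to -0.78, for Y37H2A.14 from -3.64 to -2.25 and for cyp-34A9 from 2.67 to 1.56.

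**Figure D2:**
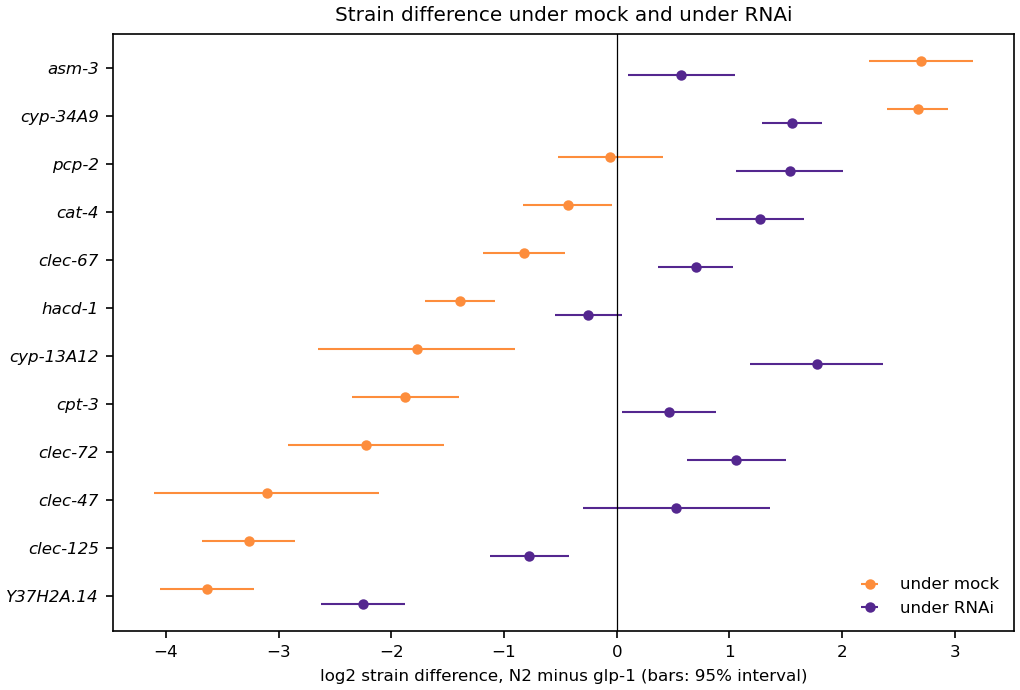
Strain difference, N2 minus glp-1 on the log2 scale, of the 12 genes under mock and under RNAi, with the 95% interval of each fitted difference as bars. The mock value lies farther from 0 than the RNAi value in 10 genes, and cat-4 and pcp-2 are the exceptions.

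Seen from N2 mock, the glp-1 mock level lay on the side of the N2 RNAi level in all 12 genes. The same count over all genes tested is not given here. Both distances start from N2 mock, so choosing genes by the interaction favours this order. The strain difference under mock was called in 10 of the 12, against 9.73% of all genes tested. On the log2 scale the distance from N2 mock to glp-1 mock was 0.801 of that from N2 mock to N2 RNAi in cpt-3, 0.872 in asm-3, 0.91 in clec-47, 0.654 in hacd-1 and 0.423 in cyp-13A12. It exceeded the N2 response in clec-125 (1.11), Y37H2A.14 (1.31) and cyp-34A9 (1.32). The smallest shares were 0.241 in clec-67, 0.203 in cat-4 and 0.0187 in pcp-2, where the mock levels were close. This share and the interaction use the same N2 mock libraries, so neither supports the other.

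The trend over coding length was measured in each library. Whether it came from the making of the libraries or from the strains was not tested. Per doubling of coding length, the log2 level relative to the mean of the 8 libraries changed by 0.086 and 0.043 in N2 mock, 0.065 and 0.149 in N2 RNAi, -0.067 and -0.060 in glp-1 mock and -0.196 and -0.020 in glp-1 RNAi. All N2 libraries thus had positive and all glp-1 libraries negative slopes, and the RNAi replicates of each strain differed more than the mock replicates did. The median interaction of all genes went from -0.11 in the shortest of 5 equal groups of genes (591 bases or fewer) through -0.07, -0.02 and 0.03 to 0.16 in the longest group (1857 bases or more). With each library's trend removed the 5 medians lay between -0.01 and 0.01. The called genes moved little: the interaction of clec-125 was 2.49 with the trend and 2.42 without it, of cpt-3 2.34 and 2.23, and of pcp-2 1.59 and 1.42. What changed for pcp-2 was the SE, 0.30 against 0.22. At an unadjusted p below 0.05 there were 490 positive genes (3.2%) and 433 negative (2.83%) without the trend.

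**Figure D3:**
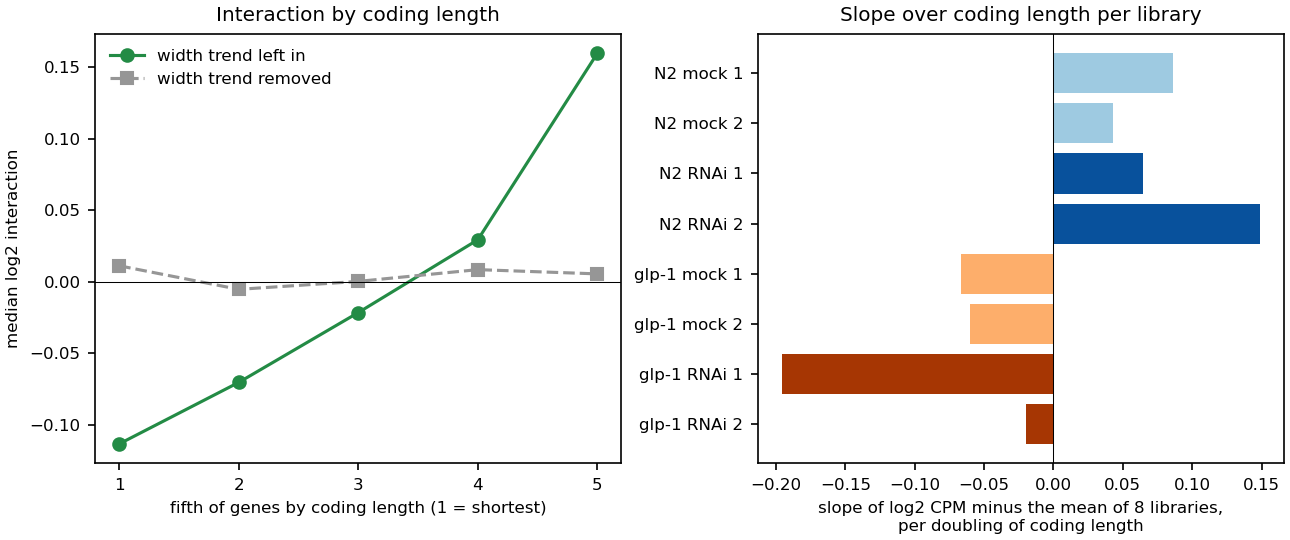
Left, median log2 interaction in 5 equal groups of genes by coding length, with the trend left in and removed. Right, the slope of each library's log2 CPM, relative to the mean of the 8 libraries, per doubling of coding length. Medians rise from -0.11 to 0.16 with the trend left in, and the bars point right for the 4 N2 libraries and left for the 4 glp-1 libraries.

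Over the whole response, the genes that changed on average over both strains changed somewhat more in N2. The mean response was called higher for 602 genes (3.93%) and lower for 359 (2.34%), a choice that weights the strains equally. The median change of the 602 genes was 1.14 in N2 and 0.80 in glp-1, their median interaction was 0.26, and 455 of them (75.6%) had a positive interaction, against 51.6% of all genes tested. Of the 359 genes, the median change was -0.98 in N2 and -0.73 in glp-1, the median interaction -0.27, and 95 (26.5%) were positive. Both medians were the same in sign under every alternative. That of the lower genes was -0.42 without N2 RNAi replicate 1 and -0.14 without N2 RNAi replicate 2, while that of the higher genes lay between 0.21 and 0.31. The mean response itself was called for 622 genes without glp-1 mock replicate 1 and 1696 without glp-1 RNAi replicate 2, against 961 with all libraries. Genes are not replicates of the strains, so these medians are descriptions.

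The median strain difference, N2 minus glp-1, of the 602 higher genes was -0.17 under mock and 0.12 under RNAi, and N2 was above glp-1 under mock in 212 of them, against 7631 of all 15321 genes. For the 359 lower genes it was -0.02 under mock and -0.24 under RNAi, which places their median difference at the treated level. Among higher genes with a mean response below 1, the median change was 0.76 in N2 and 0.54 in glp-1 (304 genes). It was 1.505 and 1.11 for 183 genes between 1 and 2, and 2.64 and 2.18 for 70 genes between 2 and 3. Among the 45 genes at 3 and above, with medians of 4.50 and 3.79, the interaction had quartiles of -0.18 and 1.60. In these 45 genes N2 was the higher strain by the median in both conditions, by 0.39 under mock and 0.87 under RNAi, whereas the 3 groups of smaller mean response had mock medians of -0.17, -0.28 and -0.26. By strain, 261 of the 602 passed the threshold in both, 197 in N2 alone, 27 in glp-1 alone and 117 in neither, where 4.79% of all genes were called in N2 and 2.7% in glp-1. Those 734 and 414 genes became 423 on leaving out N2 mock replicate 1, 436 on leaving out N2 RNAi replicate 2, and 189, 194 and 1454 without glp-1 mock replicate 1, glp-1 mock replicate 2 and glp-1 RNAi replicate 2. A gene called in N2 alone is not shown to differ between the strains, and the interaction was called for 4 of the 602, or 10 with the trend removed.

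**Figure D4:**
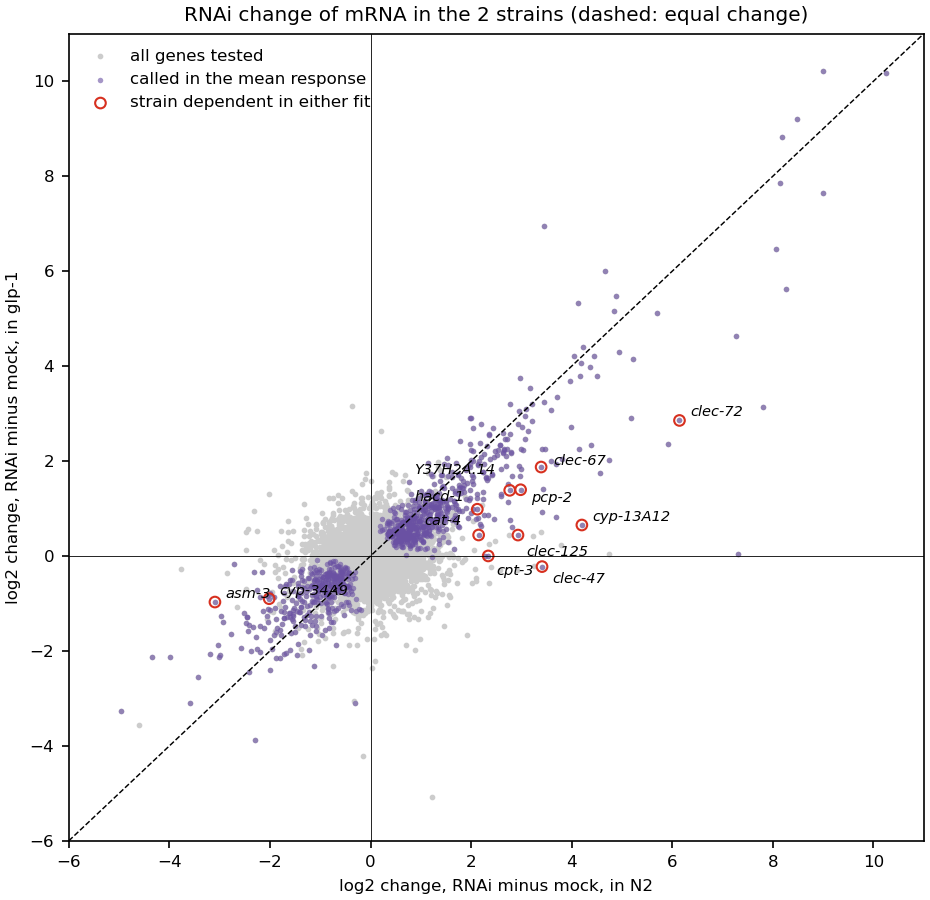
Change of every gene tested in glp-1 against its change in N2, RNAi minus mock on the log2 scale, with the 961 genes called in the mean response in purple, the 12 strain dependent genes ringed and a dashed line of equal change. The ringed genes lie farther from 0 on the N2 axis than on the glp-1 axis.

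The largest responses were not called as strain dependent. The gene ech-9, whose family includes enoyl-CoA hydratases, rose to 1326 and 1285 CPM in N2 and 589 and 844 in glp-1 from 4.56 and 4.71 and 3.56 and 2.60 under mock, with an interaction of 0.28 (SE 0.30, adjusted p = 0.898). The UDP-glucuronosyltransferase gene ugt-18 reached 508 and 468 CPM in N2 and 237.92 and 285 in glp-1, from 1.86 and 1.48 and 0.744 and 0.390, with an interaction of -0.65 (SE 0.35, adjusted p = 0.868). In both genes N2 was called above glp-1 under RNAi. The lectin gene clec-70 and the saposin-like gene spp-12 were near 0 under mock, and under RNAi they had 236 and 199 and 217 and 195 CPM in N2 and 82.7 and 79.3 and 53.5 and 30.3 in glp-1. Among falling genes, the lectin gene clec-218 changed by -4.95 in N2 and -3.26 in glp-1. Its interaction was -1.69 (SE 0.33, adjusted p = 0.193), and its strain difference was called under mock (2.21) and not under RNAi (0.51). WBGene00019208 had 18.5 and 19.5 CPM in N2 mock, 1.40 and 0.477 in N2 RNAi, 13.3 and 11.7 in glp-1 mock and 2.85 and 2.87 in glp-1 RNAi, with an interaction of -2.21 (SE 0.43, adjusted p = 0.193) and a strain difference called under RNAi alone.

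Counts of the targeted gene and of its known target were higher under RNAi in both strains, and no strain dependence of either was called in the mRNA table. The level of rege-1, which may hold reads of the fed RNA, was 13.9 and 13.8 CPM in N2 mock, 101.04 and 78.4 in N2 RNAi, 15.3 and 15.6 in glp-1 mock and 67.8 and 65.3 in glp-1 RNAi. The interaction was 0.59 (SE 0.20, 95% interval 0.15 to 1.03, adjusted p = 0.838), from 2.70 in N2 and 2.11 in glp-1. The interval, which is not adjusted for the number of genes, lay above 0. The mRNA of ets-4 was 18.1 and 21.2 CPM in N2 mock, 78.4 and 109 in N2 RNAi, 20.3 and 19.4 in glp-1 mock and 70.5 and 80.3 in glp-1 RNAi, with an interaction of 0.32 (SE 0.23, 95% interval -0.19 to 0.83, adjusted p = 0.875). In both genes RNAi and mock did not overlap in either strain, and neither was called under mock or under RNAi between the strains.

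The intron counts of rege-1, from the authors' separate table, differed by strain. Here too, reads of the fed double-stranded RNA cannot be separated from those of the worms' own transcript, and their part was not tested. They were 15 and 15 in N2 mock, 4166 and 3265 in N2 RNAi, 40 and 25 in glp-1 mock and 240 and 296 in glp-1 RNAi. The N2 RNAi libraries stood above all others by over an order of magnitude, and N2 mock was the lowest group. The intron interaction was 4.73 (SE 0.52, adjusted p = 5.16e-05), from 7.91 in N2 and 3.18 in glp-1, and it was called under all 12 alternatives run on introns, with values from 4.44 to 4.97. It was the 1 gene called of 5042 tested (0.0198%), and its strain difference was called under RNAi alone (3.95 under RNAi, and -0.78 with adjusted p = 0.534 under mock). Of 44 genes of the RNAi machinery, 0 had an interaction with unadjusted p below 0.05. The ABC transporter gene haf-6, needed for efficient RNAi in some tissues, had 61.4 and 53.6 CPM in N2 mock and 51.2 and 47.6 in N2 RNAi, against 6.94 and 7.11 in glp-1 mock and 7.89 and 7.25 in glp-1 RNAi. This strain difference was 3.03 (adjusted p = 6.52e-07) under mock and 2.70 (adjusted p = 1.53e-06) under RNAi. Of the 44 genes, 3 were called higher in N2 and 1 lower under mock, against 3.24% and 6.49% of all genes tested. Under RNAi these numbers were 5 and 2, against 7.54% and 10.6%. Whether the level of haf-6 bears on the rege-1 counts was not tested.

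**Figure D5:**
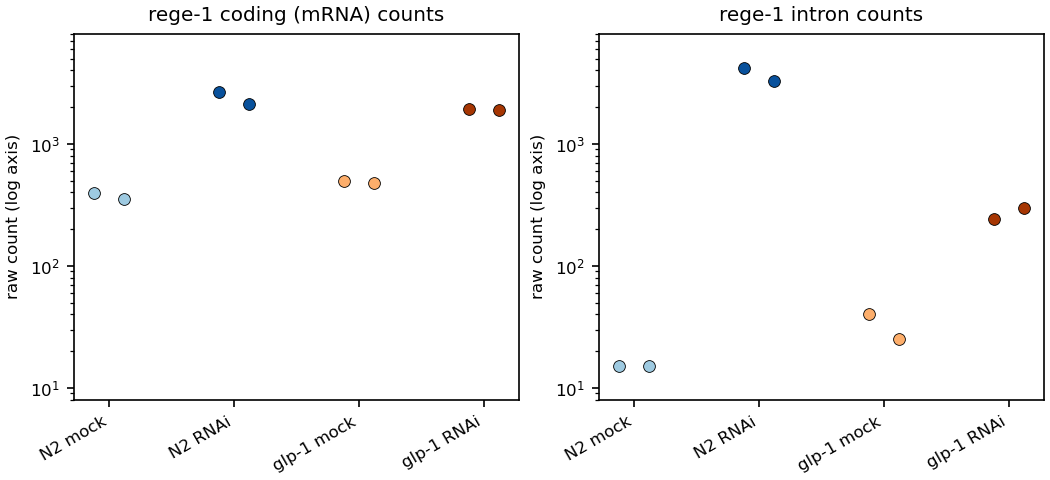
Raw counts of rege-1 in coding sequence (left) and introns (right) in each of the 8 libraries on a log axis, 1 point per library. The coding counts rise to similar values in both strains, whereas intron counts reach 3265 and 4166 in N2 RNAi and 240 and 296 in glp-1 RNAi.

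Lists of related genes are given by counts at an unadjusted p below 0.05, beside 2.41% positive and 2.99% negative of all genes. Of 153 C-type lectins tested, 17 were positive and 6 negative (11.1% and 3.92%), with a median interaction of 0.07 against 0.01 for all genes, and 55 were called higher in glp-1 than in N2 under mock and 7 lower, where 6.49% of all genes were higher in glp-1 and 3.24% lower. Of 16 genes of the p38 immune pathway and its reporters, 6 were positive and 0 negative, with a median of 0.32. Among them the infection response gene irg-4 had 4.52 and 7.78 CPM in N2 mock, 19.3 and 19.6 in N2 RNAi, 10.9 and 9.87 in glp-1 mock and 11.1 and 11.95 in glp-1 RNAi (interaction 1.52, SE 0.32, adjusted p = 0.251), with a called rise in N2 (1.67) and not in glp-1 (0.15). The gene C17H12.8 had 52.8 and 125.23 CPM in N2 mock, 267 and 254 in N2 RNAi, 139 and 129 in glp-1 mock and 109.9 and 156 in glp-1 RNAi, where the N2 mock replicates differed by more than a factor of 2. Of 10 DAF-16 repressed genes 4 were positive and 1 negative, and of 11 aspartyl proteases 4 were positive and 1 negative. No gene of the p38, DAF-16 repressed and aspartyl protease lists was called for the interaction.

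The aspartyl protease gene asp-12 had one of the steepest rises in both strains, 10.8 and 10.4 CPM in N2 mock, 2184 and 3520.2 in N2 RNAi, 4.99 and 6.27 in glp-1 mock and 501 and 496 in glp-1 RNAi. Its interaction was 1.60 (SE 0.31, adjusted p = 0.193), and the strain difference grew from 0.92 under mock to 2.52 under RNAi. The lysosomal lipase gene lipl-1, which is induced on fasting, went the other way, with 23.4 and 21.5 CPM in N2 mock, 355 and 429.6 in N2 RNAi, 4.93 and 5.23 in glp-1 mock and 225 and 181 in glp-1 RNAi. It started lower in glp-1 and rose by 5.32 there against 4.13 in N2, and the interaction of -1.197 (SE 0.23, adjusted p = 0.188) was not called. Of the 8 lysosomal and fasting lipases tested, lipl-1 alone had an unadjusted p below 0.05. The desaturase gene fat-5 changed by 2.73 in N2 and 1.13 in glp-1, with an interaction of 1.60 (SE 0.32, adjusted p = 0.215) and a lower N2 level in both conditions. Among 6 vitellogenins, the yolk protein genes, 0 were positive or negative, and vit-5 had 1252 and 1771 CPM in N2 mock, 826 and 871 in N2 RNAi, 955 and 1011 in glp-1 mock and 402 and 394 in glp-1 RNAi.

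Further lists held more negative than positive genes. Of 54 transthyretin-like genes 14 were negative and 2 positive, with a median of -0.32 and a median coding length of 434 bases. With the trend removed these numbers were 11, 3 and -0.18. For ttr-10 the level was 5.33 and 4.82 CPM in N2 mock, 3.34 and 2.42 in N2 RNAi, 4.62 and 4.64 in glp-1 mock and 7.02 and 7.05 in glp-1 RNAi, with changes of -0.82 in N2 and 0.60 in glp-1 that were not called (interaction -1.42, SE 0.29, adjusted p = 0.238). Of 39 antimicrobial peptide genes (median 225 bases) 9 were negative and 2 positive, and 8 and 2 with the trend removed. Of 91 neuropeptide genes (median 279 bases) 10 were negative and 2 positive, and 7 and 2 with the trend removed, where flp-18 had 24.9 and 18.5 CPM in N2 mock, 16.16 and 16.6 in N2 RNAi, 26.6 and 26.1 in glp-1 mock and 37.4 and 36.4 in glp-1 RNAi. Of 45 glutathione S-transferases 4 were negative and 0 positive, and 4 and 2 with the trend removed. Of 20 DAF-16 induced genes 4 were negative and 1 positive, among them pud-4 at 638 and 754 CPM in N2 mock, 147 and 96.5 in N2 RNAi, 181 and 208 in glp-1 mock and 88.7 and 80.1 in glp-1 RNAi. Of 62 cytochrome P450 genes 3 were positive and 6 negative. Lists with 0 genes in either direction included the vitellogenins, hypodermis and body wall muscle markers, the genes of Notch signalling and germline stem cells, and the major sperm proteins, of which 12 of 30 were tested. Intestine markers, of which 10 of 19 rose in the mean response against 3.93% of all genes, had 2 positive and 1 negative.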

How the data were processed

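The deposited tables hold whole-number counts for each gene in each library, 1 for mRNA and 1 for introns, with log2 forms made by the authors. In these, counts were brought to the mean library total and 8 was added before taking log2, as checked from the values. The sources used here name no aligner, build, annotation or counter. Each table held 20182 genes, of which 19513 had their WormBase identifier in Ensembl 115 (WBcel235), which gave positions. Since 96.6% of the deposited widths divide by 3, width is read as coding length. Of the per-sample columns, 0 were unmatched to a sample.

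Counts were analysed in R 4.3.3 with edgeR 4.0.16: filterByExpr with a minimum count of 10 (15321 genes for mRNA, 5042 for introns), TMM scaling, and a robust quasi-likelihood fit of the 4 groups (4 residual degrees of freedom) with two-sided F tests and Benjamini-Hochberg adjustment over all genes tested. A trend fit took each library's lowess curve (span 0.3) of log2 CPM, relative to the mean of the libraries, over log2 coding length as an offset. Named genes were rege-1, ets-4, all genes called, those of lowest p or largest mean response with at least 5 CPM in the highest group, and up to 4 per list by lowest p. The members and lists were chosen with earlier results of these data known. Alternatives were other scaling and filters, DESeq2 1.42.0, limma 3.58.1 on the deposited log2 values, replicate blocks, a linear trend and each library left out. Intervals are 95% intervals of the fit.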

Additional observations from a re-analysis of the deposited data

Results flagged for a closer look

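The differences between the strains that passed the test of the difference itself were those of clec-125 (log2 interaction 2.49), clec-72 (3.29), cpt-3 (2.34) and cyp-13A12 (3.55) in mRNA counts and of rege-1 (4.73) in intron counts, each larger in N2. The intron counts may hold reads of the fed double-stranded RNA, whose part was not tested. Groups held 2 libraries, so no test for an outlying library was made.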

How the results depend on the processing

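Against 4 positive and 0 negative genes, the interaction count was 10 and 2 with the width trend removed, 9 and 2 with a linear trend removed, 4 and 1 with DESeq2 size factors or library size alone, 9 and 2 with no filter on low counts, and 19 and 11 by DESeq2. With a replicate block it was 7 and 1, with the block and the trend removed 13 and 5, and with a block within strain 29 and 19. Deviations of same-numbered libraries correlated weakly (from -0.11 to 0.17), with the highest value between N2 mock and N2 RNAi. The labels do not state pairing, and weak correlations cannot exclude it. When each library was left out in turn, positive genes ran from 0 to 388 and negative from 0 to 27, or 0 to 23 and 0 to 6 with the trend removed (23 and 3 without N2 mock replicate 2). The mean response ran from 622 to 1696 genes, RNAi in N2 from 423 to 822, RNAi in glp-1 from 189 to 1454, the strain difference from 458 to 2304 under mock and from 517 to 4031 under RNAi, and the median interaction of lower genes from -0.42 to -0.14, or to -0.16 with the trend removed. With a mean of at least 5 CPM the strain difference was called for 659 genes under mock and 1535 under RNAi, of 9639 tested. In introns, 2 genes were called with library size alone, 13 with no filter and from 1 to 13 with a library left out. The causes of these changes were not tested. Some alternatives also held fewer genes or libraries. No result changed sign while called. With 2 libraries per group, 4 residual degrees of freedom limit what the test of the difference can call, and values that rest on few counts, such as the 13 and 4 counts of cyp-13A12 in N2 mock, carry the most counting error.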
